A study of Mus musculus with 59 samples.

Results

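Of 22119 genes with a transcript listed in at least 1 of 14 mouse epiblasts, 10 genes of the epithelial to mesenchymal transition were followed by symbol, and 10 of 10 were found. They were *Cdh1* and *Epcam*, which mark epithelia, *Cdh2*, *Vim* and *Fn1*, which mark mesenchyme, and the transcription factors *Snai1*, *Snai2*, *Zeb1*, *Zeb2* and *Twist1*. Each gene was represented by its transcript with the highest mean raw count, and a transcript that a count file did not list was given a count of 0. RNA of single epiblasts, dissected at E6.25 and sequenced one embryo at a time, was compared between knockouts and controls in a pair of crosses, which make up 14 of the 59 samples of the series. The *Ehmt2* cross (G9a, which dimethylates lysine 9 of histone H3) held 4 controls labelled G9a+/+ and 4 knockouts labelled G9a-/-. The *Ezh2* cross (the catalytic subunit of the polycomb complex that methylates lysine 27 of histone H3) held 3 controls labelled Ezh+/+ and 3 knockouts labelled Ezh-/-. All came from crosses of heterozygous parents on a mixed background, without treatment, and the *Ehmt2* line had been crossed to a *Pou5f1*-EGFP reporter. The study's methods describe controls as wild type or heterozygous, although the labels give wild type, so a control may carry 1 null allele. In these crosses every tissue of a knockout embryo lacks the gene, and not the epiblast alone.

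The epithelial to mesenchymal transition is the change in which cells of a sheet lose their junctions and polarity and become migratory. E-cadherin, encoded by *Cdh1*, holds epithelial cells together, and N-cadherin, encoded by *Cdh2*, is the cadherin of many mesenchymal cells. Transcription factors of the Snail, Zeb and Twist families repress epithelial genes, and the Snail and Zeb proteins are known to bind E-boxes of the sequence CAGGTG. In the mouse embryo the epiblast is an epithelium, and its cells pass through the transition in the primitive streak at gastrulation, for which *Snai1* is required. At E6.25 the epiblast is a tissue shortly ahead of gastrulation.

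RefSeq promoter windows for GRCm38.p6 were examined for 5 of the 10 genes: *Epcam*, *Vim*, *Snai1*, *Zeb2* and *Twist1*. No window was examined for *Cdh1*, *Cdh2*, *Fn1*, *Snai2* or *Zeb1*, so nothing is said here of their promoters. The 250 bases before the annotated start are shown for *Epcam* and *Twist1*, because these were the 2 genes whose *Ezh2* knockouts and controls did not overlap. Capitals mark the E-boxes CAGGTG and CACCTG in *Epcam*, 1 on each strand, and each CG in *Twist1*.
*Epcam* (chr17:87635729-87635978, plus strand): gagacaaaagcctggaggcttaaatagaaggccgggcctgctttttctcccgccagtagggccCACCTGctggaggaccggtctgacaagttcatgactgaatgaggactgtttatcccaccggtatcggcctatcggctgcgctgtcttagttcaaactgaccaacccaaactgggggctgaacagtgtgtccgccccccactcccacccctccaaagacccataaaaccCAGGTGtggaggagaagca
*Twist1* (chr12:33957421-33957670, plus strand): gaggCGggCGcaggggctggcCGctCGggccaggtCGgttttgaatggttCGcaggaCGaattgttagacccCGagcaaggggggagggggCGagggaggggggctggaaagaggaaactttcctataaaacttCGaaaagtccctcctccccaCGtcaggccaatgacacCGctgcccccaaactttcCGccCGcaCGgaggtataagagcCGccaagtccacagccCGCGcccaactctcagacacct

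The *Epcam* window held 2 E-box matches and the *Snai1* window 1, whereas the windows of *Vim* and *Twist1* and the 4 windows of *Zeb2* held none. RefSeq starts can differ from those of the transcripts counted here. The *Vim* window, and the *Zeb2* windows other than chr2:45117443-45117692, lie within the span of the counted transcript. Over all 32851 windows of this length, 17.2% held at least 1 match on either strand and 2.1% held 2 or more. The *Twist1* window held 18 CG and the *Snai1* window 27, against a median of 6, and 78.3% and 91.4% of windows held fewer. The *Epcam* and *Vim* windows each held 8 CG. These matches are descriptions of the letters in 1 window per start, and no binding or histone mark was measured at them here.

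Summed over all transcripts, counts ranged from 30161171 to 68464895 per epiblast. Replicate 4 of the *Ehmt2* cross stood apart from the other libraries. Its control and knockout had the highest totals of the 14, 62589918 and 68464895, and differed more from replicates of their own genotype than those did from each other. Levels are given as CPM, counts relative to the size of the library after the 14 libraries were scaled to each other. The targeted genes fell in the crosses named for them. *Ehmt2* was followed by ENSMUST00000013931, which is not its transcript with the highest mean count. It was at 10.5 to 34 CPM in controls and 3.29 to 9.79 in knockouts, with a log2 fold change of -1.63 (edgeR adjusted p = 0.00454). Summed over its transcripts, *Ehmt2* had a log2 fold change of -1.64 (edgeR adjusted p = 0.0067). *Ezh2* was at 51.6 to 108 CPM in controls and 11.4 to 16 CPM in knockouts, with a log2 fold change of -2.52 (edgeR adjusted p = 0.016). The *Ehmt2* call was lost without the term for replicate 4 (-1.66, edgeR adjusted p = 0.289), and the *Ezh2* call without knockout 1, 2 or 3 (-2.44, -2.45 and -2.71, edgeR adjusted p = 0.0817, 0.343 and 0.18) and with 1 or summed transcripts per gene (-2.55 and -2.53, edgeR adjusted p = 0.0784 and 0.154). The 8 epiblast markers, *Pou5f1*, *Otx2* and *Fgf5* among them, summed to 1660 to 3030 CPM and none was at 0 in any epiblast. In the *Ehmt2* cross these sums were lower in every knockout (1660 to 2380 CPM) than in every control (2620 to 3030 CPM). At an unadjusted p under 0.05, 5 of the 8 markers were lower and 0 higher, beside 5.62% and 6.15% of all transcripts tested. Of the 8, 0 were called by edgeR or DESeq2. Markers of other tissues were uneven. The 9 extraembryonic ectoderm markers summed to 14.2 to 20.3 CPM in *Ehmt2* controls and to 201, 57.4, 72.1 and 19.1 CPM in *Ehmt2* knockouts 1 to 4, with 6 of the 9 at 0 in knockout 4. The 14 visceral endoderm markers summed to 1270 CPM in *Ezh2* control 2 and 2860 CPM in *Ezh2* knockout 1, against 8.92 to 87.9 CPM in the other 12 epiblasts. The 8 listed nascent mesoderm markers were highest in *Ehmt2* control 2, at 88 CPM, and the 10 maternal decidua and blood markers in *Ezh2* control 1, at 74.7 CPM. In bulk RNA, fewer cells of a type and less RNA per cell cannot be told apart.

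**Figure D1:**
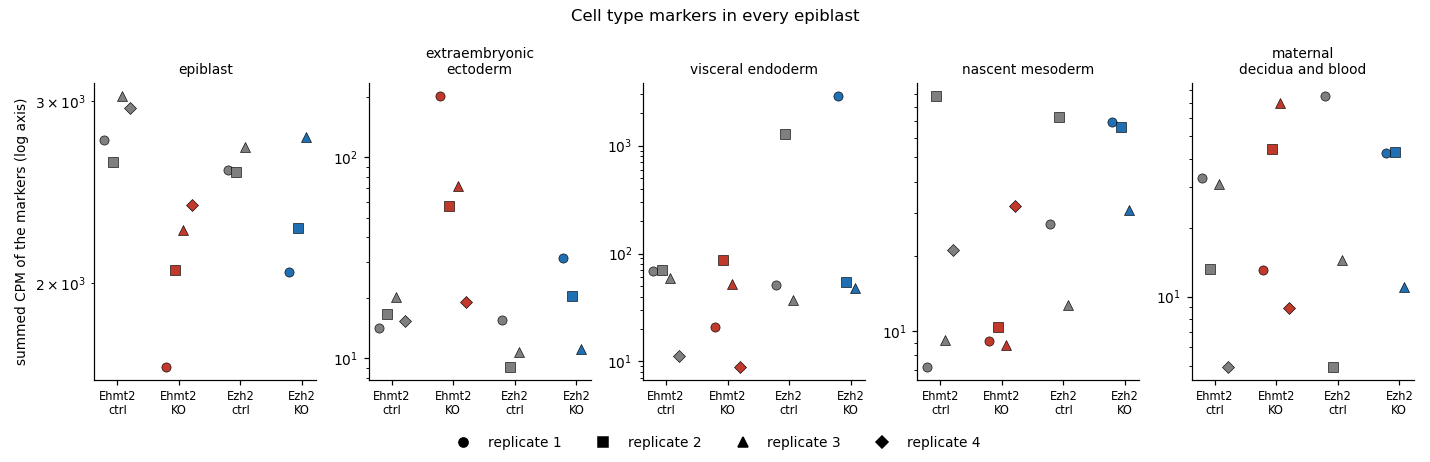
Summed CPM (log axis) of the markers of 5 tissues in each of the 14 epiblasts, 1 point per epiblast with its replicate number as the symbol, grouped by cross and genotype. Extraembryonic ectoderm markers reached 201 CPM in *Ehmt2* knockout 1, and visceral endoderm markers 1270 and 2860 CPM in 1 *Ezh2* control and 1 *Ezh2* knockout.

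In the 7 controls, the genes were set in order by their level per length, in CPM per kb of transcript. The epithelial genes stood far above the rest. *Epcam* had a median of 80.2 CPM per kb (67.9 to 94.9) and *Cdh1* of 69.5 CPM per kb (57.8 to 75.5), and their ranges overlapped. *Fn1* followed at 8.22 CPM per kb (6.56 to 9.82), and its range did not reach that of *Cdh1*. *Vim* had a median of 2.99 CPM per kb (2.25 to 8.88) and *Cdh2* of 1.46 CPM per kb (1.1 to 2.91), with overlapping ranges.

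The transcription factors were the lowest of the genes in the controls. *Snai1* had a median of 0.812 CPM per kb, *Snai2* of 0.365, *Zeb2* of 0.338, *Twist1* of 0.115 and *Zeb1* of 0.0999. From *Fn1* downward, every gene overlapped its next neighbour in the order, but *Fn1* lay above *Cdh2* and all 5 factors without overlap, and the lowest *Vim* level (2.25 CPM per kb) lay above the highest of any factor (1.95 CPM per kb, *Snai1*). Within single transcription factors the spread was wide: *Zeb1* ran from 0.0147 to 0.453 CPM per kb and *Zeb2* from 0.226 to 1.16 CPM per kb. The mesenchymal cadherin was thus detected in every control, but per length at 1 part in 23.6 to 1 part in 65.2 of the epithelial cadherin in the same epiblast.

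**Figure D2:**
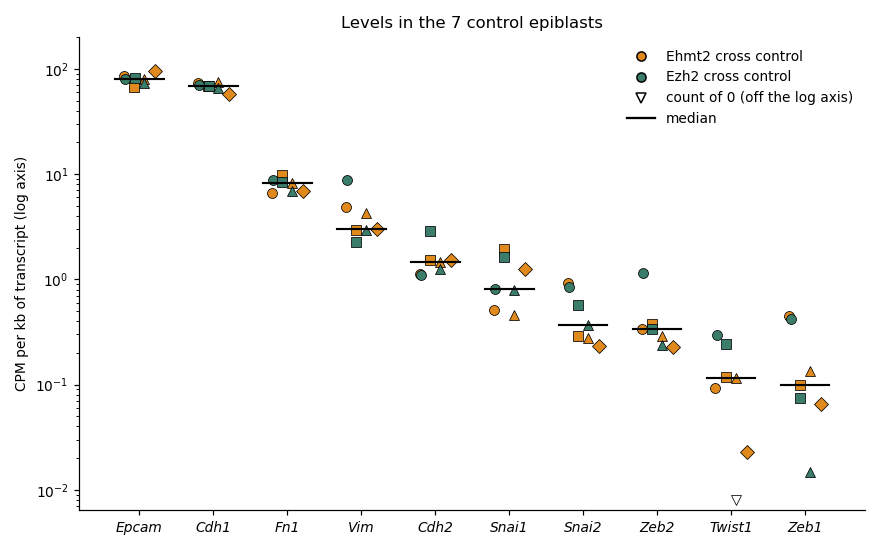
CPM per kb of transcript (log axis) of the 10 genes in the 7 control epiblasts, coloured by cross, with the replicate number as the symbol and the median as a line. *Epcam* and *Cdh1* lie between 57.8 and 94.9 CPM per kb and all other genes below 10 CPM per kb, and the open triangle is *Twist1* in *Ezh2* control 3, with a count of 0.

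In the *Ehmt2* cross, none of the 10 genes passed the test. A call needed both a log2 fold change beyond 1.4 and an adjusted p under 0.05 (Benjamini-Hochberg) in the quasi-likelihood test of edgeR. Of the 49872 transcripts tested, 220 (0.441%) were called higher and 29 (0.0581%) lower in knockouts. By symbol these were transcripts of 118 and 14 genes. The fit had a term for replicate 4, and without that term 51 transcripts were higher and 1 lower. Of the 10 genes, 9 passed the filter on low counts and 0 of these 9 were called, also by DESeq2. At an unadjusted p under 0.05, 2 of the 9 were lower and 0 higher, against 5.62% and 6.15% of all transcripts tested. These were *Cdh2* and *Fn1*, and the same 2 genes were the ones with every knockout below every control, which 2.54% of transcripts tested showed (2.55% had every knockout above). The median log2 fold change of the 9 genes was -0.20, beside 0.01 over all genes tested with 1 transcript each.

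**Figure D3:**
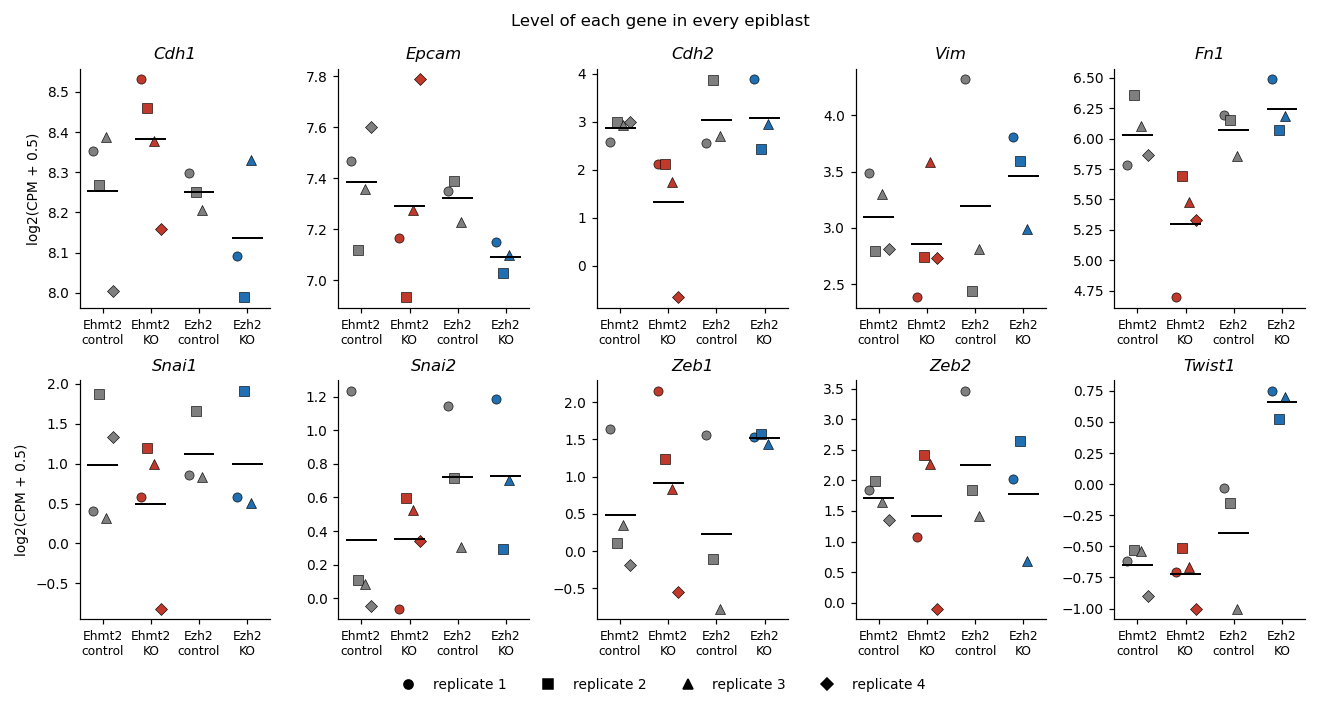
Level of each of the 10 genes, as log2(CPM + 0.5), in every epiblast (symbol, replicate number; horizontal line, mean of the group). In the *Ehmt2* cross *Cdh2* and *Fn1* are lower in all 4 knockouts than in all 4 controls, and in the *Ezh2* cross *Epcam* is lower and *Twist1* higher in all 3 knockouts than in all 3 controls.

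The epithelial adhesion genes were nearly level between *Ehmt2* genotypes. *Cdh1* (ENSMUST00000000312, chr8:106603351-106670246, plus strand) was at 327, 308, 335 and 256 CPM in controls 1 to 4 and at 369, 351, 332 and 285 CPM in knockouts 1 to 4. The groups overlapped, and in each genotype replicate 4 was the lowest. Knockouts differed from controls by a log2 fold change of 0.13 with an SE of 0.08 (edgeR adjusted p = 0.568). *Epcam* (ENSMUST00000053577, chr17:87635979-87651106, plus strand), a homophilic adhesion molecule of epithelia, was at 176, 138, 164 and 194 CPM in controls and 143, 122, 155 and 220 CPM in knockouts. Knockout 4 was the highest epiblast of all 14 for *Epcam*, and the groups overlapped. Its log2 fold change was -0.09 (SE 0.12, edgeR adjusted p = 0.813).

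*Cdh2* (ENSMUST00000025166, chr18:16588877-16809246, minus strand) was lower in *Ehmt2* knockouts than in controls without passing the test. Controls were at 5.46, 7.45, 7.09 and 7.41 CPM and knockouts at 3.83, 3.82, 2.87 and 0.134 CPM, so the lowest control lay above the highest knockout. Knockout 4 stood far below the other 3 knockouts, with 8 counts in the deepest library, where its control had 395. Controls averaged 6.85 ± 0.941 CPM and knockouts 2.66 ± 1.75 CPM (SD, n = 4 each). Its log2 fold change was -1.74 with an SE of 0.63, at an edgeR adjusted p of 0.29. Without replicate 4 in either genotype it was -0.93 with an SE of 0.26 (edgeR adjusted p = 0.145), with every remaining knockout still below every control. Without the term for replicate 4 the log2 fold change was -1.37 (edgeR adjusted p = 0.728). The other protein-coding isoform tested, ENSMUST00000115850, had a log2 fold change of -1.67 (edgeR adjusted p = 0.249), but isoforms share reads and are not a second measurement.

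As a ratio of levels per length within each epiblast, *Cdh1* over *Cdh2* was 65.2, 45.1, 51.7 and 37.8 in *Ehmt2* controls. In *Ehmt2* knockouts it was 105, 101, 126 and 2330. The groups did not overlap, which follows in part from *Cdh2* itself not overlapping, and the last ratio rests on the 8 *Cdh2* counts of knockout 4. Among the knockouts, *Cdh2* and the summed extraembryonic ectoderm markers were both lowest in knockout 4. *Cdh2* was level in knockouts 1 and 2 (3.83 and 3.82 CPM), where these marker sums were 201 and 57.4 CPM. In knockouts 1 to 3 the sums lay above every control (14.2 to 20.3 CPM), whereas *Cdh2* lay below every control. The epiblast marker sums, held mostly by *Dnmt3b*, were lower in every knockout than in every control, but the mean log2 levels of these markers overlapped. The part of either marker set in the *Cdh2* difference was not tested.

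*Fn1* (ENSMUST00000055226, chr1:71585524-71653175, minus strand) encodes fibronectin, the matrix protein on which mesoderm cells migrate. It was at 54.5, 81.7, 68.4 and 57.6 CPM in *Ehmt2* controls and 25.4, 51.3, 44.2 and 39.8 CPM in knockouts. All knockouts lay below all controls, with knockout 1 the lowest. Knockout 1 also had the lowest epiblast marker sum, 1660 CPM, and the highest extraembryonic ectoderm sum, 201 CPM, and their part in the *Fn1* difference was not tested. The means were 65.5 ± 12.3 and 40.2 ± 10.9 CPM (SD, n = 4 each), a ratio of 0.613. This log2 fold change, -0.70 (SE 0.20), did not pass in edgeR (adjusted p = 0.179). DESeq2 gave an adjusted p of 0.0246, which is under the threshold, but its fold change was also short of 1.4. Leaving out 1 epiblast at a time moved the log2 fold change between -0.84 and -0.52. An antisense gene, *Apol7d*, shares 267 bases (3.2%) of the exons of *Fn1*, and whether counting used the strand is not given in the sources used here.

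*Vim* (ENSMUST00000028062, chr2:13573952-13582826, plus strand), the intermediate filament protein of mesenchyme, did not separate the genotypes. Controls were at 10.7, 6.44, 9.36 and 6.55 CPM and knockouts at 4.72, 6.19, 11.5 and 6.16 CPM. The highest and the lowest of these 8 epiblasts were both knockouts. Its log2 fold change was -0.20 (SE 0.29, edgeR adjusted p = 0.84).

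Among the transcription factors of the *Ehmt2* cross, all groups overlapped and no gene had an unadjusted p under 0.05. *Snai1* (ENSMUST00000052631, chr2:167538195-167542814, plus strand), which represses *Cdh1* at gastrulation, was at 0.827, 3.16, 0.749 and 2.03 CPM in controls and 1, 1.79, 1.49 and 0.0668 CPM in knockouts. Its highest level was in control 2, the epiblast with the highest sum of nascent mesoderm markers, and its lowest, from 4 counts, in knockout 4. The log2 fold change was -0.97 (SE 0.81, edgeR adjusted p = 0.695), and -0.16 when knockout 4 was left out. In that fit the term for replicate 4 takes up control 4, so neither epiblast of replicate 4 bears on the value.

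*Snai2* (ENSMUST00000023356, chr16:14705852-14709385, plus strand) was at 0.469 to 1.85 CPM in controls and 0.458 to 1.01 CPM in knockouts, with control 1 highest. *Zeb1* (ENSMUST00000025081, chr18:5591864-5775467, plus strand) was at 2.63, 0.58, 0.775 and 0.375 CPM in controls and 3.95, 1.85, 1.28 and 0.184 CPM in knockouts. The order of the 4 replicates of *Zeb1* had replicate 1 highest and replicate 4 lowest in both genotypes, and its log2 fold change was 0.44 (SE 0.62, edgeR adjusted p = 0.838). *Zeb2* (ENSMUST00000176438, chr2:44983632-45117395, minus strand) was at 2.06 to 3.46 CPM in controls and 1.6, 4.83, 4.33 and 0.434 CPM in knockouts, so that the 2 highest and the 2 lowest epiblasts were all knockouts. The log2 fold change of *Zeb2* was -0.31 (SE 0.49, edgeR adjusted p = 0.859), and 0.23 without replicate 4. Another *Zeb2* isoform, ENSMUST00000068415, had nearly the same counts and the same log2 fold change, and an antisense gene, *Zeb2os*, shares 171 bases (1.9%) of its exons. *Twist1* (ENSMUST00000049089, chr12:33957671-33959829, plus strand) had 9 counts at most in a control and 7 at most in a knockout, too few to pass the filter, and was not tested in this cross. The 0 in knockout 4 allows up to 0.0501 CPM, for counting error only. Summed over the 5 factors, levels were 2.31, 2.83, 1.28 and 1.8 CPM per kb in *Ehmt2* controls and 1.77, 2.58, 2.16 and 0.501 CPM per kb in knockouts, with overlapping groups and knockout 4 lowest.

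In the *Ezh2* cross, none of the 10 genes passed the test either, and hardly any transcript did. Of 50855 transcripts tested, 0 (0%) were called higher and 6 (0.0118%) lower in knockouts by edgeR. Those of the 6 with a symbol were transcripts of 1 gene, the targeted *Ezh2*. At an unadjusted p under 0.05, 2060 transcripts (4.05%) were higher and 1508 (2.97%) lower. DESeq2 called 153 higher and 25 lower. All 10 genes passed the filter and 0 of 10 were called by either tool. At an unadjusted p under 0.05, 1 of the 10 was lower and 0 higher. With 3 epiblasts in each group, *Twist1* had every knockout above every control, which 6.44% of tested transcripts showed, and *Epcam* every knockout below, which 6.68% showed. With 1 of 10 genes each way, the count is near what all transcripts showed. The median log2 fold change of the 10 genes was 0.03, the same as over all genes tested with 1 transcript each.

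*Epcam* was at 163, 167 and 149 CPM in *Ezh2* controls and at 141, 130 and 137 CPM in knockouts. The groups did not overlap, but the gap between the lowest control and the highest knockout was smaller than the spread among controls. The means were 160 ± 9.1 and 136 ± 5.62 CPM (SD, n = 3 each), a ratio of 0.852. The log2 fold change was -0.23 (SE 0.10), with an unadjusted p of 0.0491 and an edgeR adjusted p of 0.71. *Cdh1* was at 314, 304 and 295 CPM in controls and 273, 254 and 321 CPM in knockouts, with knockout 3 above every control. Its log2 fold change was -0.11 (SE 0.11, edgeR adjusted p = 0.897).

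*Cdh2* varied within the *Ezh2* genotypes and not between them. Controls were at 5.35, 14.1 and 5.98 CPM and knockouts at 14.2, 4.85 and 7.22 CPM. The 2 high values were in control 2 and knockout 1, the 2 epiblasts with visceral endoderm markers of 1270 and 2860 CPM, and the part of these cells in the *Cdh2* level was not tested. *Cdh2* had a log2 fold change of 0.05 (SE 0.45, edgeR adjusted p = 0.994). *Cdh1* over *Cdh2* per length was 64.5, 23.6 and 53.6 in controls and 21, 57.2 and 48.7 in knockouts, with the same 2 epiblasts lowest.

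*Fn1* in the *Ezh2* cross was at 72.7, 70.5 and 57.5 CPM in controls and 89.1, 66.7 and 72.1 CPM in knockouts, with overlapping groups and a log2 fold change of 0.18 (SE 0.15, edgeR adjusted p = 0.857). *Vim* was at 19.5, 4.94 and 6.52 CPM in controls and 13.5, 11.6 and 7.43 CPM in knockouts. Control 1 had the highest *Vim* of all 14 epiblasts and also the highest sum of maternal decidua and blood markers, whose part in that level was not tested. The log2 fold change of *Vim* was 0.07 (SE 0.45, edgeR adjusted p = 0.988), and 0.92 without control 1.

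*Twist1* was the gene with the largest fold change in the *Ezh2* cross among the 10. It had 17, 14 and 0 counts in controls and 38, 35 and 43 in knockouts, which is 0.476, 0.4 and 0 CPM against 1.18, 0.938 and 1.13 CPM. All knockouts lay above all controls, and control 3, with a count of 0 that allows up to 0.085 CPM, stood below the other 2 controls. Knockouts averaged 1.08 ± 0.128 CPM and controls 0.292 ± 0.256 CPM (SD, n = 3 each), a ratio of 3.71. In edgeR the log2 fold change was 1.88 (SE 0.94) with an adjusted p of 0.749, and it was 1.3 without control 3. The exact permutation test gave a two-sided p of 0.1, the smallest that 3 against 3 epiblasts allow, so this test could not have passed at 0.05. In the *Ehmt2* cross *Twist1* reached 0.202 CPM at most.

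*Zeb1* was close to constant in *Ezh2* knockouts, at 2.39, 2.47 and 2.2 CPM, and ran from 0.085 to 2.44 CPM in controls. Control 1 was as high as the knockouts, with 87 counts, whereas controls 2 and 3 had 15 and 3. *Zeb1* had a log2 fold change of 1.26 (SE 0.83, edgeR adjusted p = 0.818), rising to 3.18 (SE 0.71, edgeR adjusted p = 0.388) without control 1 and falling to 0.71 without control 3. *Zeb2* was at 10.6, 3.08 and 2.18 CPM in controls and 3.54, 5.74 and 1.1 CPM in knockouts. The highest *Zeb2* level of the 14 epiblasts was in control 1. Its log2 fold change of -0.61 (SE 0.65, edgeR adjusted p = 0.899) became 0.39 without that epiblast. Control 1 also had the highest maternal decidua and blood marker sum, 74.7 CPM, whose part in the *Zeb1* and *Zeb2* levels was not tested.

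*Snai1* was at 1.32, 2.65 and 1.28 CPM in *Ezh2* controls and 0.995, 3.27 and 0.918 CPM in knockouts. Replicate 2 was highest in each genotype, and the log2 fold change was -0.01 (SE 0.57, edgeR adjusted p = 0.999). *Snai2* was at 1.71, 1.14 and 0.737 CPM in controls and 1.77, 0.724 and 1.13 CPM in knockouts, with a log2 fold change of 0.01 (SE 0.54, edgeR adjusted p = 0.999).

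**Figure D4:**
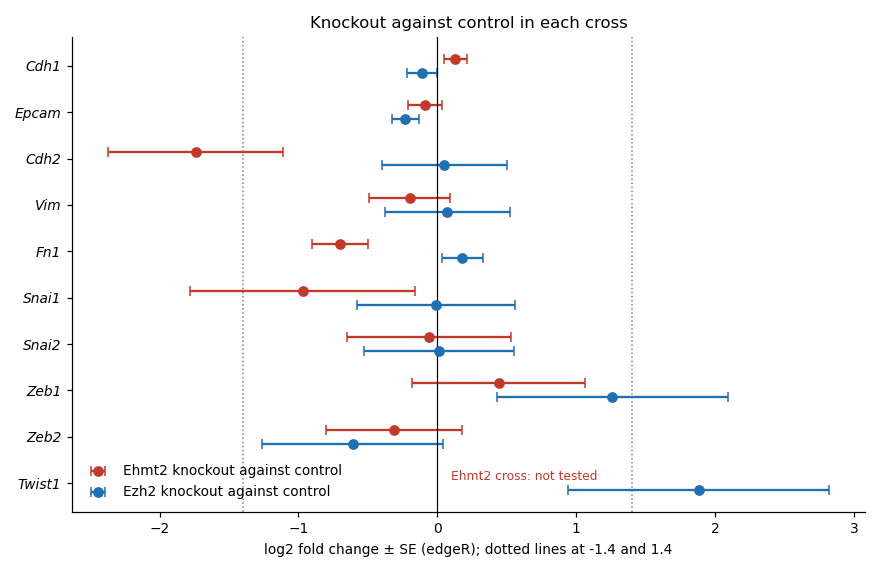
Log2 fold change of knockouts against controls with its SE, from edgeR, for each gene in the *Ehmt2* cross (red) and the *Ezh2* cross (blue), with dotted lines at the fold change a call required. *Cdh2* at -1.74 in the *Ehmt2* cross and *Twist1* at 1.88 in the *Ezh2* cross lie beyond a dotted line, and neither passed the test.

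Each knockout was also compared with its controls on its own. The per-embryo rule required a combined p under 0.05 by Fisher's method without adjustment, a log2 fold change beyond 1.4 the same way in every knockout, and no epiblast of the group with the higher level under a normalised count of 5. In the *Ehmt2* cross knockouts 1 to 3 were compared with controls 1 to 3 and knockout 4 with control 4. The rule took 0.565% of transcripts as higher and 0.192% as lower in the *Ehmt2* cross, and 0.57% and 0.146% in the *Ezh2* cross, and 0 of the 10 genes in either.

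*Cdh2* had log2 fold changes of -0.80, -0.80, -1.22 and -5.76 in *Ehmt2* knockouts 1 to 4, so 1 of 4 went beyond 1.4. *Fn1* had -1.43, -0.41, -0.63 and -0.53, likewise 1 of 4. *Twist1* came nearest to the rule, with 2.00, 1.67 and 1.94 in the *Ezh2* knockouts, all 3 beyond 1.4, but its combined p was 0.155. *Zeb1* had 1.28, 1.32 and 1.16 in the same knockouts. The signs were the same in all knockouts of a cross for *Cdh1*, *Cdh2* and *Fn1* in the *Ehmt2* cross and for *Epcam*, *Zeb1* and *Twist1* in the *Ezh2* cross, and mixed for the others.

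**Figure D5:**
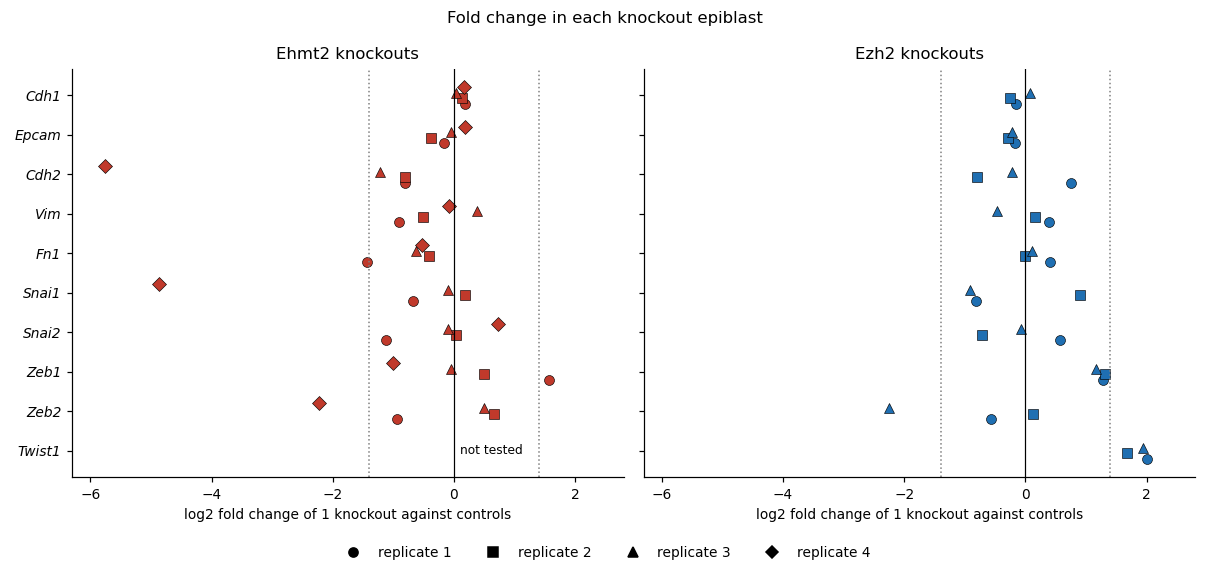
Log2 fold change of each knockout epiblast against its controls for the 10 genes, *Ehmt2* cross on the left and *Ezh2* cross on the right, with the replicate number as the symbol and dotted lines at -1.4 and 1.4. *Cdh2* at -5.76 and *Snai1* at -4.86 in *Ehmt2* knockout 4 lie far from the other knockouts, and *Twist1* at 1.67 to 2.00 lies beyond 1.4 in all 3 *Ezh2* knockouts.

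The difference between the effects of the knockouts was tested in 1 fit over all 14 epiblasts. Of 55248 transcripts, 32 (0.0579%) differed at an edgeR adjusted p under 0.05, and 0 of the 10 genes did. At an unadjusted p under 0.05 only *Fn1* did among the 10: its effect in the *Ehmt2* cross was lower by 0.88 on the log2 scale than in the *Ezh2* cross (SE 0.28, edgeR adjusted p = 0.402, unadjusted 0.00627). The difference was -1.78 (SE 0.88, edgeR adjusted p = 0.616) for *Cdh2* and -2.49 (SE 1.37, edgeR adjusted p = 0.665) for *Twist1*. That *Cdh2* and *Fn1* were low in *Ehmt2* knockouts and not in *Ezh2* knockouts is therefore not shown to be a difference between the crosses.

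Other genes of the transition, in 5 lists, gave few calls. Of 25 genes of epithelial junctions and polarity, all 25 were tested in each cross and 0 were called by edgeR or DESeq2. Without adjustment, at a p under 0.05, 4 were higher and 0 lower in *Ehmt2* knockouts, and 1 was higher and 1 lower in *Ezh2* knockouts. Over all transcripts tested, 6.15% were higher and 5.62% lower in *Ehmt2* knockouts, and 4.05% and 2.97% in *Ezh2* knockouts. These shares are the background for all 5 lists. The median log2 fold change of the 25 genes was 0.10 in the *Ehmt2* cross and -0.01 in the *Ezh2* cross, beside 0.01 and 0.03 over all genes. *Dsp*, which encodes the desmosomal protein desmoplakin, was at 2.57 to 5.58 CPM in *Ehmt2* controls and at 43.5, 15.6, 13.9 and 2 CPM in *Ehmt2* knockouts. Its log2 fold change was 1.90 (edgeR adjusted p = 0.166), and 2.52 without replicate 4 (edgeR adjusted p = 0.0154), which is a call.

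Of 18 epithelial regulators, 16 were tested in each cross, and 1, *Grhl3*, was called higher in *Ehmt2* knockouts, beside 0.441% of all transcripts tested. *Grhl3*, a Grainyhead-like factor of surface epithelia, was at 0.827, 0.365, 0.775 and 0 CPM in controls and at 8.93, 3.88, 2.51 and 0 CPM in knockouts. Knockouts 1 to 3 were above every control, and both epiblasts of replicate 4 were at 0. The log2 fold change was 2.94 (SE 0.57, edgeR adjusted p = 0.0475). The call was lost when control 1, 2 or 3 or knockout 1 or 2 was left out, with edgeR adjusted p of 0.136, 0.185, 0.151, 0.214 and 0.108. It was also lost without the term for replicate 4 (edgeR adjusted p = 0.675) and with summed transcripts (edgeR adjusted p = 0.108). *Klf5* stood at 2.31 (edgeR adjusted p = 0.0526), with 17.7, 6.33, 10.5 and 0.484 CPM in the knockouts. *Klf5* was called by DESeq2 (adjusted p = 3.43e-05), and by edgeR with no filter, with 1 transcript per gene and without replicate 4 (adjusted p = 0.0152, 0.0449 and 0.00679). *Dsp*, *Grhl3* and *Klf5* were each highest in knockout 1 and lowest in knockout 4. The summed extraembryonic ectoderm markers had the same highest and lowest knockout, but *Hand1* was highest in knockout 3 and *Ets2* lowest in knockout 2. Of these markers, 9 of 9 had positive log2 fold changes with a median of 3.63, and 3 were called (*Elf5*, *Sox21* and *Tfap2c*). Without the term for replicate 4 *Elf5* and *Sox21* lost their calls (edgeR adjusted p = 0.29 and 0.41). Leaving out control 1, 2 or 3 also ended the call of *Elf5* (edgeR adjusted p = 0.0799, 0.0715 and 0.0768), and with each of these or knockout 1, 2 or 3 left out *Sox21* was at an edgeR adjusted p of 0.062 to 0.221. DESeq2 called *Cdx2*, *Elf5*, *Tead4* and *Tfap2c*, and not *Sox21* (adjusted p = 0.0748). The part of that tissue in the *Dsp*, *Grhl3* and *Klf5* levels was not tested. In the *Ezh2* cross 0 of the 16 regulators were called by either tool and 0 had an unadjusted p under 0.05.

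Of 18 other transcription factors of the transition, 15 were tested in the *Ehmt2* cross and 14 in the *Ezh2* cross, and 0 were called by edgeR. In *Ehmt2* knockouts 1 was higher and 3 lower at an unadjusted p under 0.05, and in *Ezh2* knockouts 2 were higher and 2 lower.

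Of 26 mesenchymal cytoskeleton, matrix and protease genes, 23 were tested in the *Ehmt2* cross and 25 in the *Ezh2* cross, and 0 were called by edgeR. At an unadjusted p under 0.05, 2 were higher and 2 lower in *Ehmt2* knockouts, and 5 were higher and 0 lower in *Ezh2* knockouts. *Pdgfrb*, a growth factor receptor of mesenchyme, was at 0.252, 0 and 0.0283 CPM in *Ezh2* controls and 1.77, 1.23 and 1.18 CPM in *Ezh2* knockouts. The groups did not overlap, at a log2 fold change of 3.85 (edgeR adjusted p = 0.437), and DESeq2 called it (adjusted p = 0.015). The median of the list was 0.32 in the *Ehmt2* cross and 0.16 in the *Ezh2* cross, and the latter was -0.08 without control 2 and knockout 1, the 2 epiblasts high in visceral endoderm markers.

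Of 20 genes of TGF-beta and gastrulation signals, 18 were tested in each cross and 0 were called by edgeR. At an unadjusted p under 0.05, 3 were higher and 1 lower in *Ehmt2* knockouts, and 2 were higher and 2 lower in *Ezh2* knockouts. *Mixl1*, a homeobox gene of the primitive streak, was at 1.9, 48.4, 1.71 and 0.994 CPM in *Ehmt2* controls and at 0.944, 1.19, 1.07 and 0 CPM in knockouts. Its log2 fold change of -4.21 (edgeR adjusted p = 0.103) rested on control 2 and was -1.81 without it. DESeq2 called it lower (-4.68, adjusted p = 0.0154), as did edgeR with no filter (-4.22, adjusted p = 0.0249). *Tgfb1*, a ligand that induces the transition in many epithelia, was at 0.084, 0.257 and 0.113 CPM in *Ezh2* controls and at 0.622, 0.375 and 0.551 CPM in *Ezh2* knockouts. *Tgfb1* had a log2 fold change of 1.75 (edgeR adjusted p = 0.699).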

How the data were processed

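Raw counts per Ensembl transcript of 14 single E6.25 epiblasts were used as deposited by the authors, who amplified 750 pg of RNA per epiblast, aligned reads with TopHat2 and counted them with HTSeq, without normalisation. Only transcripts with a count are listed. Both files of *Ehmt2* replicate 4 also held a row of unaligned reads (12.63% and 13.28% of their totals), which was left out. Of 72515 transcripts, 70021 (96.6%) matched GENCODE vM21 (GRCm38), which gave symbols, positions and lengths. No column of per-sample values was left unused.

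The members, lists and tests were chosen with earlier results of these data known. Transcripts passing filterByExpr were tested with the quasi-likelihood test of edgeR 4.0.16 (R 4.3.3), with TMM scaling and Benjamini-Hochberg adjustment over all of them. The *Ehmt2* fit had a term separating replicate 4, and knockout 4 was set against control 4 alone in the per-embryo rule. This was inferred from the study's source data and differs from its stated methods, by which a knockout is set against all controls. The SE was taken as the absolute log2 fold change over the root of the F statistic. CPM were scaled over the 14 epiblasts, with a pseudocount of 0.5 on the log2 scale in plots. Named genes were the 10 members, both targeted genes, and some genes of the lists that were called or had the largest fold changes of their list (at most 2 per list and cross). Others that met this rule are not named. *Dsp* is named by that rule. Alternatives included DESeq2 1.42.0, no filter, 1 or summed transcripts per gene, the replicate block and leaving out each epiblast. The scripts were tested on simulated data. The limits given for counts of 0 cover counting error only, whereas the SE also takes in variation between epiblasts of a group. A result for 1 gene of the lists is not reported here.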

Additional observations from a re-analysis of the deposited data

Results flagged for a closer look

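In groups of 4 epiblasts, 34 sets of values were examined for an epiblast far from the other 3 by Dixon's gap over range, and 3 stood out, where chance gives about 1 in 20. *Snai2* in *Ehmt2* control 1 was at 1.85 CPM, against 0.469 to 0.58 CPM in the other 3 controls. The ratio of *Cdh1* to *Cdh2* per length in *Ehmt2* knockout 4 was 2330, against 101 to 126 in the other 3 knockouts. The summed nascent mesoderm markers in *Ehmt2* knockout 4 were at 31.9 CPM, against 8.82 to 10.4 CPM in the other 3 knockouts, although 3 of the 8 markers were at 0 there. *Lefty2* (21.9 CPM) and *Fgf8* (9.5 CPM) made up nearly all of that sum. The mean log2 level over the 8 markers was 0.37 in knockout 4, within the 0.35 to 0.47 of the other 3 knockouts.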

How the results depend on the processing

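None of the 10 genes was called under any alternative run in either cross or for the difference between crosses. The numbers of all transcripts called moved. For the *Ehmt2* cross (220 higher, 29 lower), DESeq2 gave 544 and 192, no filter on low counts 395 and 65, 1 transcript per gene 112 and 12, summed transcripts 61 and 4, no term for replicate 4 51 and 1, and leaving replicate 4 out 391 and 45. Without a minimum fold change 81 were lower. Leaving out 1 epiblast at a time gave 94 to 399 higher and 7 to 48 lower. For the *Ezh2* cross (0 and 6), DESeq2 gave 153 and 25, no filter 20 higher, 1 transcript per gene 0 lower, summed transcripts 1 and 0, and leaving out control 2 and knockout 1, chosen after seeing the data, 23 higher. Leaving out 1 epiblast gave 0 to 21 higher and 0 to 6 lower. With 1 transcript per gene the per-embryo rule took 118 higher and 30 lower in the *Ehmt2* cross (282 and 96 with all transcripts) and 108 and 17 in the *Ezh2* cross (290 and 74). For the difference between crosses (19 more positive, 13 more negative), no filter gave 37 and 32, 1 transcript per gene 11 more positive, and leaving out 1 epiblast 8 to 21 and 3 to 13. Fewer features are tested with 1 transcript per gene, and otherwise the cause was not tested. Log2 levels of the tested transcripts, less the mean of their genotype group, were correlated between controls and knockouts. Same-numbered epiblasts correlated at 0.054, 0.11, 0.164 and 0.372 in the *Ehmt2* cross and at -0.002, -0.114 and 0.156 in the *Ezh2* cross. Different-numbered ones correlated at -0.243 to 0.155 and at -0.203 to 0.208. These ranges overlap, so they do not settle whether the numbers are pairs. In the *Ehmt2* cross 0.372 was control 4 with knockout 4, and every negative value set an epiblast of replicate 4 against another replicate. The study's methods give 4 litters for the *Ehmt2* cross and 3 for the *Ezh2* cross, and do not say which epiblasts shared one. Apart from the term for replicate 4, the main fits did not take the numbers as pairs. With the replicate block, 99 were higher and 6 lower in the *Ehmt2* cross, 3 were higher in the *Ezh2* cross, and *Grhl3*, *Elf5* and *Sox21* lost their calls (2.82, 5.30 and 3.76, edgeR adjusted p = 0.112, 0.0526 and 0.169).

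Signs turned only for values far from the threshold, and the cause was not tested. Ranges are over leaving out 1 epiblast. In the *Ehmt2* cross *Snai2* (-0.06) became 0.12 with the replicate block, 0.55 without control 1 and 0.19 without knockout 1. *Zeb2* (-0.31) became 0.23 without either or both epiblasts of replicate 4, and *Zeb1* (0.44) became -0.09 without knockout 1 (ranges -0.62 to 0.23 and -0.09 to 1.05). With either epiblast of replicate 4 left out, its term takes up the other, so the *Zeb2* values are 1 estimate and not separate checks. In the *Ezh2* cross *Snai2* (0.01) became -0.01 with 1 or summed transcripts per gene, -0.02, -0.24 and -0.37 without control 2, control 3 or knockout 1 (highest 0.36), and -0.40 without control 2 and knockout 1 together. *Cdh2* (0.05) became -0.05 with summed transcripts and -0.20, -0.15 and -0.49 without control 1, control 3 or knockout 1 (highest 0.63). *Vim* (0.07) became -0.26, -0.18 and -0.12 without control 2, control 3 or knockout 1 (highest 0.92), and -0.45 without control 2 and knockout 1. *Snai1* (-0.01) became 0.42, 0.26 and 0.29 without control 2, knockout 1 or knockout 3 (lowest -0.87), and 0.69 without control 2 and knockout 1. *Zeb2* (-0.61) became 0.39 without control 1 (lowest -1.19). In the difference between crosses *Snai2* (-0.07) became 0.54, 0.17, 0.18 and 0.30 without *Ehmt2* control 1, *Ehmt2* knockout 1, *Ezh2* control 3 or *Ezh2* knockout 1 (lowest -0.42). *Zeb2* (0.30) became -0.01, -0.70 and -0.12 without *Ehmt2* knockout 2, *Ezh2* control 1 or *Ezh2* knockout 3 (highest 0.88), and *Vim* (-0.27) became 0.06 without *Ezh2* control 2 (lowest -1.12).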
